A study of Rattus norvegicus with 6 samples.

Results

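The collagen chains and the proteins that modify, process, fold or bind them were examined in PC12 cells with NQO1 knocked down (siNQO1) and in control cells (siCtrl). Genes were taken by symbol from the protein-coding rows of the count table: every numbered collagen chain (Col followed by type and chain), the lysyl hydroxylases (Plod), the lysyl oxidases (Lox and Loxl), Serpinh1, P3h1, Pcolce and Sparc. The rule found 51 of 18746 genes, of which 39 were collagen chains and 11 were modifying or binding genes. The remaining gene, Col4a3bp, was taken by its symbol although it encodes the ceramide transfer protein and not a collagen. It is described apart from the collagens.

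PC12 is a cell line derived from a rat adrenal pheochromocytoma, and NQO1 is a quinone reductase. Cells were transfected with a lipid reagent, and polyadenylated RNA from 3 siNQO1 and 3 siCtrl libraries was sequenced. The paper describes both reagents as siRNAs and the control as a negative-control siRNA, whereas the sample labels name an shRNA against NQO1 and give the groups as knockdown and control. The labels name no other treatment of either group, and the paper calls the samples biological replicates without saying which cultures they stem from. The p-values thus measure the spread between these libraries.

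Collagen chains are made in the endoplasmic reticulum, where prolines and lysines are hydroxylated and the chains wind into a rope-like helix with the help of chaperones. Fibrillar procollagens are trimmed outside the cell and assemble into fibrils, which lysyl oxidases crosslink. Type IV collagen instead forms the sheet of basement membranes, type VI forms beaded filaments around cells, and FACIT collagens decorate the surface of fibrils. In peripheral nerve and adrenal tissue these collagens make up the matrix and basement membranes around the cells.

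Nqo1 (ENSRNOG00000012772) was at 369, 321 and 345 FPKM (fragments scaled to transcript length and to the mapped reads of the library) in siCtrl replicates 1, 2 and 3 and at 80.8, 75.2 and 77.7 FPKM in siNQO1, with a log2 fold change of -2.13. Libraries held 28873824 to 39467230 reads in genes. SiCtrl replicate 2 stood apart: its log2 CPM (counts scaled to library size) correlated across genes at r = 0.986 and 0.989 with the other siCtrl libraries and at 0.989 to 0.990 with the siNQO1 libraries. Results that rest on it are given with and without it. The label PC12 was compared with chromaffin cell markers, since the pheochromocytoma arises from chromaffin cells. Of the 10 such markers with a row, 9 were under 1 FPKM in every library, among them the catecholamine enzymes Th (0.04 to 0.09 FPKM) and Dbh (0.02 to 0.12 FPKM) and the granule protein Chga (0.01 to 0.04 FPKM). Scg2 alone was high, and it carried the summed level of this list, 166 to 175 FPKM in siCtrl and 108 to 119 FPKM in siNQO1. The measured markers therefore go against a chromaffin identity, and the cells are called PC12 here only as labelled.

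Markers of other cell types that make collagen were also measured. The 5 Schwann cell markers with a row summed to 470 to 536 FPKM in siCtrl and 416 to 423 FPKM in siNQO1, and 2 of them were lower (S100b and Erbb3). The 11 fibroblast or other mesenchymal markers summed to 145 to 152 FPKM in siCtrl and 144 to 151 FPKM in siNQO1. Of these, 2 of the 7 tested were higher (Pdgfrb and Prrx1), while Dcn was at or under 0.01 FPKM. In edgeR, 5.27% of all genes tested were higher and 7.38% lower at an adjusted p under 0.05. Endothelial markers summed to at most 3.51 FPKM and macrophage markers to at most 1.49 FPKM in any library, and none of either passed the test. In bulk RNA a change in the number of cells of a type and a change in RNA per cell cannot be told apart, and the part of these markers in the collagen results was not tested.

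Expression of the genes found by the rule was concentrated in few of them. Of the 51 genes, 22 had a mean over 1 FPKM, 18 over 10 FPKM and 5 over 100 FPKM: Sparc, Col6a2, Pcolce, Loxl3 and Col6a1. The share of reads in all 51 genes was 0.607%, 0.558% and 0.616% for siCtrl replicates 1, 2 and 3, against 0.648%, 0.664% and 0.677% for siNQO1. Each siNQO1 share was above each siCtrl share. This order did not hold in every class. It held for the fibrillar chains (0.0571% to 0.0583% in siCtrl, 0.0879% to 0.0943% in siNQO1) and for type VI (0.175% to 0.202%, then 0.216% to 0.229%). It also held for the FACIT, short-chain and lysyl hydroxylase genes. The type IV, lysyl oxidase and chaperone, processing and binding genes overlapped between the groups. The most abundant chains were Col6a2, Col6a1 and Col5a2, whereas the chains of the classical skin and bone fibrils, Col1a1 and Col3a1, were each under 1 FPKM in every library.

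**Figure D1:**
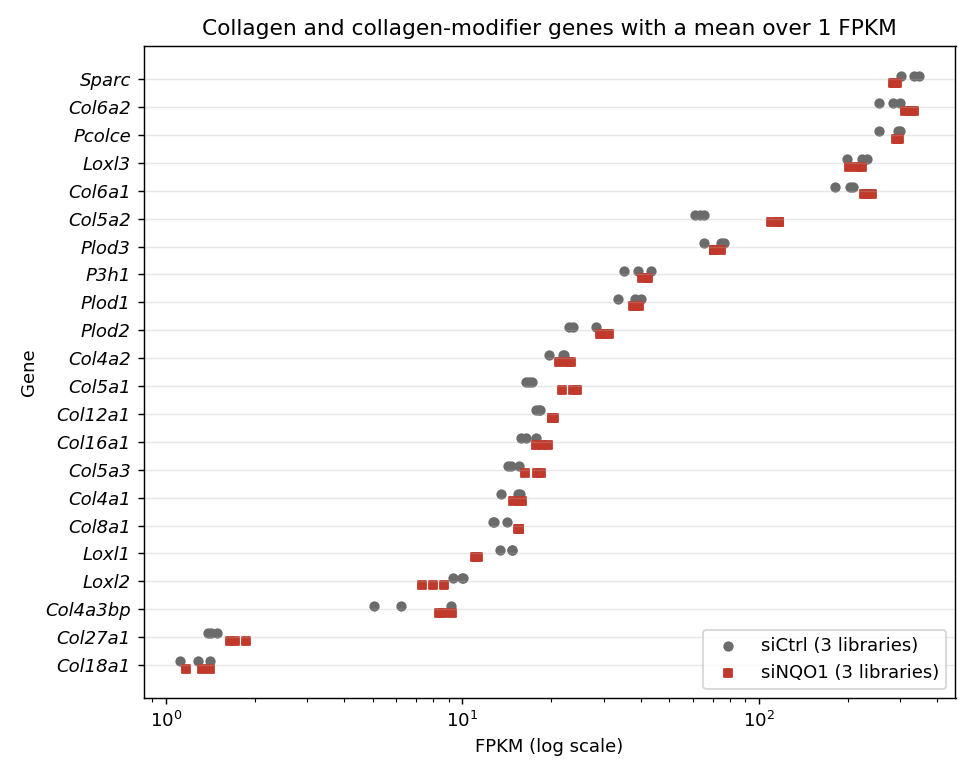
FPKM on a log axis of the 22 genes with a mean over 1 FPKM, with each of the 3 siCtrl (circles) and 3 siNQO1 (squares) libraries as a point. Sparc and Col6a2 lie at the top with means of 308 and 303 FPKM, and Col5a2 shows the widest gap between the groups.

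Of the 35 genes that passed the filter on low counts, 7 rose in siNQO1 (Col5a2, Col5a1, Plod2, Col5a3, Col6a1, Col8a1 and Col12a1), 2 fell (Loxl1 and Col22a1) and 26 did not pass an adjusted p of 0.05 in edgeR. Across all 12420 genes tested, 5.27% were called higher and 7.38% lower. None of the 9 changed by more than 2-fold. Among the 24 tested collagen chains 6 rose and 1 fell, and among the 10 tested modifying and binding genes 1 rose and 1 fell. The median log2 fold change was 0.08 over the chains and 0.06 over all 35 genes, beside 0.0099 over all genes tested. The siNQO1 libraries were all above the siCtrl libraries in 12 of the 35 genes, where 16.3% of all genes tested had this order, and all below in 6, where 17.9% did.

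**Figure D2:**
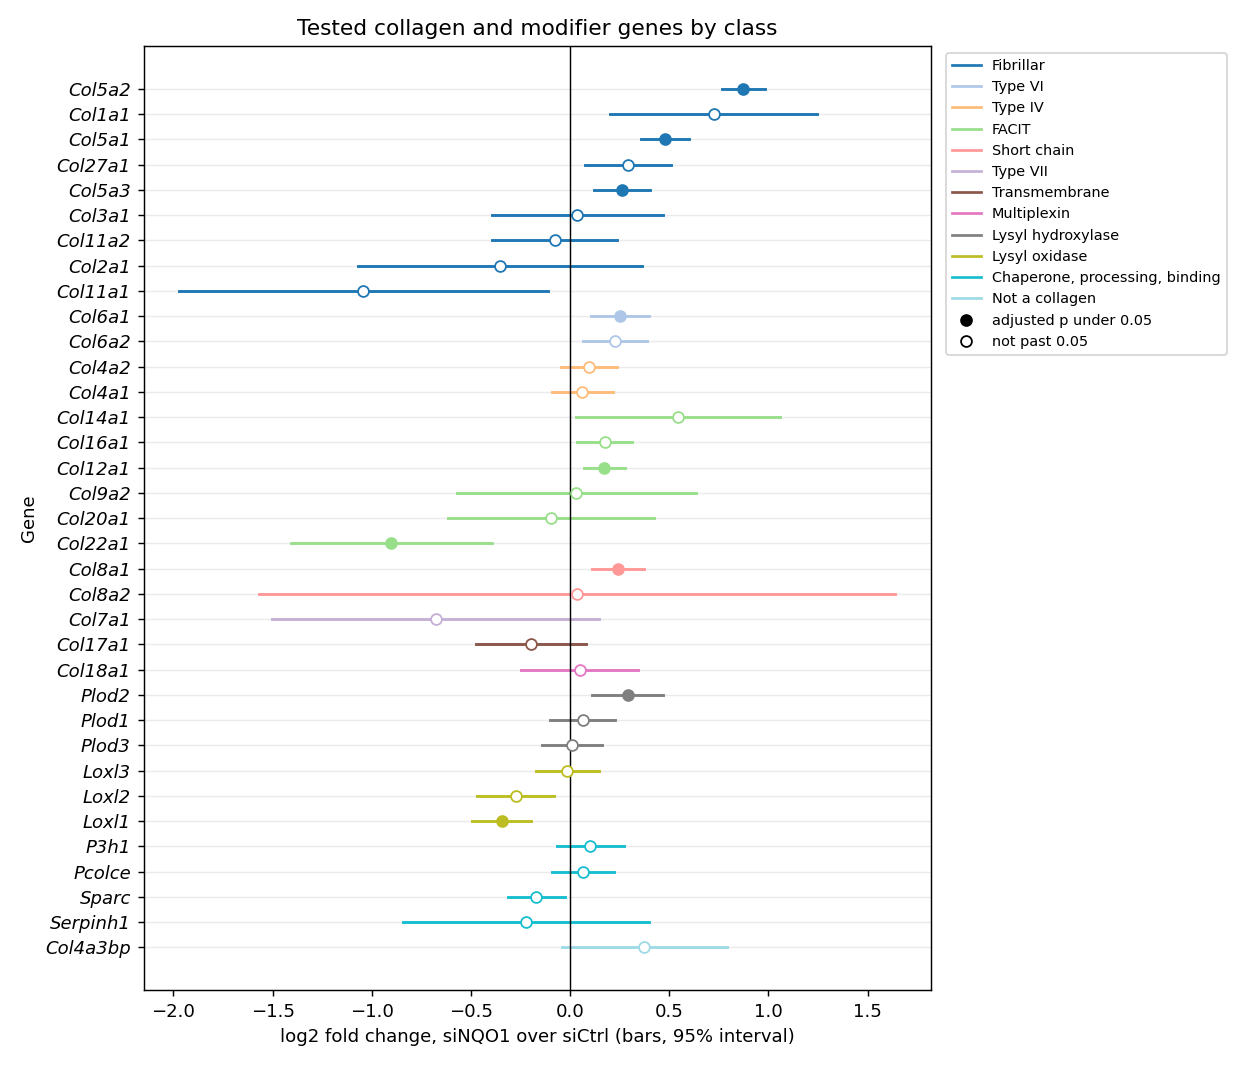
Log2 fold change, siNQO1 over siCtrl, with its 95% interval for each of the 35 tested genes, coloured by class, filled where the adjusted p was under 0.05. The 3 type V chains sit right of 0, with Col5a2 at 0.87, and Loxl1 and Col22a1 are the filled points to the left.

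Among the fibrillar collagens, the type V chains were the ones that passed the test. Type V collagen is a minor fibrillar collagen that sits inside fibrils and regulates their diameter, and its molecules combine Col5a1, Col5a2 and Col5a3 chains. Col5a2 (ENSRNOG00000003736) was at 65.3, 63.6 and 60.8 FPKM in siCtrl replicates 1, 2 and 3 and at 110, 117 and 117 FPKM in siNQO1. The groups did not overlap, and the means were 63.3 ± 2.27 and 114.8 ± 3.87 FPKM (SD, n = 3 each). The fold was 1.83, with a log2 fold change of 0.87 (95% interval 0.76 to 0.98) and an adjusted p of 6.66e-05 in edgeR.

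Col5a1 (ENSRNOG00000008749), the chain found in most type V molecules, was at 16.9, 16.4 and 17.1 FPKM in siCtrl and at 21.7, 23.6 and 24.3 FPKM in siNQO1. It rose with a log2 fold change of 0.48 (95% interval 0.36 to 0.60, adjusted p = 0.00154 in edgeR), and no libraries overlapped. Col5a3, a chain of more restricted expression, was at 14.6, 14.2 and 15.5 FPKM in siCtrl and at 16.3, 17.8 and 18.5 FPKM in siNQO1. Its rise was smaller, 0.26 on the log2 scale (95% interval 0.12 to 0.40, adjusted p = 0.0296 in edgeR), again without overlap. Col5a2 and Col5a1 passed in all 6 fits that left out 1 library, and were the only 2 of the 9 called genes to do so.

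The 3 type V genes lie on different chromosomes, and the 250 bases before their starts differed in composition. They are shown because these chains form joint molecules and rose together. The sequences are from RefSeq for the rat build GRCr8, 5′ to 3′ in the direction of the gene, whereas the counts were made on RGSC6. Capitals mark the CCAAT box, the GC box spelled GGGCGG and the TATA box spelled TATAAA, each searched on both strands, and no matches overlap. Col5a1 is at chr3:31606630-31606879 (plus strand), Col5a2 at chr9:55090152-55090401 (minus strand) and Col5a3 at chr8:27625949-27626198 (minus strand).
Col5a1: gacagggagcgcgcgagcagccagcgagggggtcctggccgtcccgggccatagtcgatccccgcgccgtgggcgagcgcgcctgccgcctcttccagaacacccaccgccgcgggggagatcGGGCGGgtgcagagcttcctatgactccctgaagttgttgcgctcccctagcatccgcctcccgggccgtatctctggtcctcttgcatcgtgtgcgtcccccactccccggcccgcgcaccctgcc
Col5a2: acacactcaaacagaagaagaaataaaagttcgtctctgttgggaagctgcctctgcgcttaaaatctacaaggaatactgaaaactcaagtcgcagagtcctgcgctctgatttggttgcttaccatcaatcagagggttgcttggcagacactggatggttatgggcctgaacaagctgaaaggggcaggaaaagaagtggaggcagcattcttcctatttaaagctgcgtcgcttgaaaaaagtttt
Col5a3: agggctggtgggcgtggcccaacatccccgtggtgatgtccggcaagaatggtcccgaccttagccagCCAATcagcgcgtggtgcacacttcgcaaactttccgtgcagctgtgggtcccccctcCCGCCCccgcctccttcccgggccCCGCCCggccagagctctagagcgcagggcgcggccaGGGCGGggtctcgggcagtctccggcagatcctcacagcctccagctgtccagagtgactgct
The GC content was 71.6% for Col5a1, 44.8% for Col5a2 and 68.8% for Col5a3. Col5a1 held 1 of the searched motifs, Col5a3 held 4, and in the Col5a2 window these letters were not found. Of the 51 genes, 41 matched a RefSeq promoter, and the same 250 bases before the start were searched in each and in all other promoters. GGGCGG was in 26 of these 41 windows and in 32.4% of all 27457 promoters. Among genes over 1 FPKM, the motif was in 14 of the 19 matched windows and in 62.0% of 7416 promoters. CCAAT was in 12 of 41 windows and in 34.3% of all promoters. TATAAA was in 3 of 41 windows and in 13.1% of all promoters. For genes over 1 FPKM, CCAAT was in 4 of 19 windows and in 37.0% of promoters. TATAAA was there in 0 of 19 windows and in 5.64% of promoters.

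Since chains of a type assemble together, ratios of FPKM between chains of the same type were computed in each library. These ratios were chosen with the values in view. The Col5a2 to Col5a1 ratio was 3.88, 3.87 and 3.55 in siCtrl and 5.08, 4.94 and 4.82 in siNQO1 (means 3.76 ± 0.186 and 4.95 ± 0.132, SD, n = 3 each). The Col5a3 to Col5a1 ratio was 0.867, 0.865 and 0.905 in siCtrl and 0.752, 0.754 and 0.761 in siNQO1. Neither ratio overlapped between the groups, and the exact two-sided permutation p was 0.10 for each, the smallest that 3 against 3 can give. The Col6a2 to Col6a1 ratio overlapped between the groups, at 1.39, 1.41 and 1.45 in siCtrl and 1.37, 1.41 and 1.39 in siNQO1. For Col4a2 to Col4a1 the ratio was 1.41, 1.45 and 1.41 in siCtrl and 1.37, 1.54 and 1.47 in siNQO1, also overlapping.

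**Figure D3:**
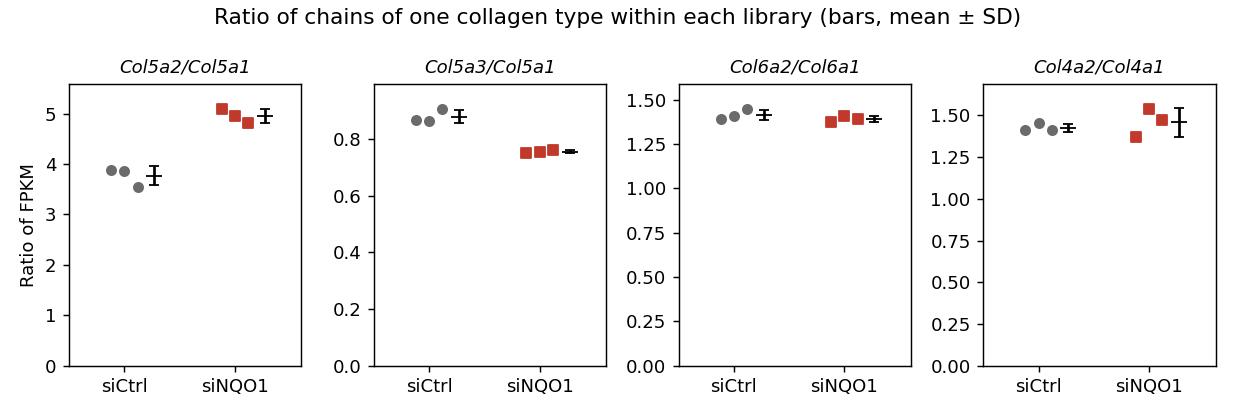
Ratio of FPKM between chains of the same collagen type in each of the 3 siCtrl (circles) and 3 siNQO1 (squares) libraries, with bars for the mean ± SD and axes from 0. The Col5a2 to Col5a1 ratio is higher and the Col5a3 to Col5a1 ratio lower in all 3 siNQO1 libraries, while the type VI and IV ratios overlap.

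Of the 10 fibrillar chains, 9 were tested, 3 rose and none fell, beside 5.27% higher and 7.38% lower over all genes tested. Col27a1, a fibrillar chain best known from cartilage, was at 1.42, 1.49 and 1.39 FPKM in siCtrl and at 1.64, 1.71 and 1.86 FPKM in siNQO1 (log2 fold change 0.29, adjusted p = 0.0789 in edgeR). Col1a1, a chain of type I collagen, was at 0.37, 0.32 and 0.21 FPKM in siCtrl and at 0.52, 0.38 and 0.56 FPKM in siNQO1, with a log2 fold change of 0.72 and a 95% interval from 0.20 to 1.25 (adjusted p = 0.0743 in edgeR). Neither gene overlapped between the groups, and neither passed. Without siCtrl replicate 2 both passed, Col27a1 at 0.0316 and Col1a1 at 0.0343 (adjusted p, edgeR), and Col1a1 also with no filter on low counts (0.0494). Col11a1, a chain of the cartilage fibrils, had 11, 23 and 23 reads in siCtrl and 11, 5 and 13 in siNQO1, and its log2 fold change of -1.04 did not pass (adjusted p = 0.132 in edgeR). Summed over the class, the fibrillar chains stood at 99.8, 97.2 and 96.5 FPKM in siCtrl and 151.6, 161.4 and 163.7 FPKM in siNQO1, most of it from Col5a2.

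Col6a1 and Col6a2 were the most abundant collagen chains. Col6a1 (ENSRNOG00000001249) was at 204, 182 and 208 FPKM in siCtrl and at 227, 233 and 241 FPKM in siNQO1. It rose by 0.25 on the log2 scale (95% interval 0.11 to 0.40, adjusted p = 0.0364 in edgeR), with no overlap. Col6a2, its partner in the type VI molecule and its neighbour on chromosome 20, was at 284, 256 and 301 FPKM in siCtrl and at 312, 328 and 336 FPKM in siNQO1. Its libraries did not overlap either, but the log2 fold change of 0.23 (95% interval 0.07 to 0.39) missed the threshold at an adjusted p of 0.0703 in edgeR. The other chains with a row, Col6a4, Col6a5 and Col6a6, are neighbours on chromosome 8 and had 4 to 11 reads each over all libraries. Col6a2 passed without siCtrl replicate 2, the lowest library for both genes, at an adjusted p of 0.00804 in edgeR and a log2 fold change of 0.16. It also passed with library size alone (0.0498), with no filter on low counts (0.0450) and in DESeq2 (0.0171).

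Col4a1 and Col4a2, the main chains of type IV basement membrane collagen, did not pass in either direction. Col4a1 was at 15.7, 13.5 and 15.5 FPKM in siCtrl and at 15.5, 14.8 and 15.9 FPKM in siNQO1 (log2 fold change 0.06, 95% interval -0.09 to 0.21). Col4a2 was at 22.1, 19.7 and 21.8 FPKM in siCtrl and at 21.2, 22.7 and 23.3 FPKM in siNQO1 (log2 fold change 0.09, 95% interval -0.05 to 0.23). Both genes overlapped between the groups. They are read in opposite directions, with 76 bases between their starts. The stretch between the starts is shown because it lies directly before both genes, and its part in their expression was not tested (RefSeq, GRCr8, chr16:84885521-84885596, plus strand, with the reverse complement of GGGCGG in capitals).
Col4a1 and Col4a2: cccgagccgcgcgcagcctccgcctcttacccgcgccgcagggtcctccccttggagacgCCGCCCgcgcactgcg
The GC content of this stretch was 78.9%. Col4a4, Col4a5 and Col4a6, chains of specialised basement membranes, had 1 to 12 reads over all libraries.

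Among the FACIT collagens and their relatives, 6 of 8 were tested, 1 rose and 1 fell. The shares over all genes tested were 5.27% higher and 7.38% lower. Col12a1, which coats fibrils, was at 18.2, 17.7 and 18.3 FPKM in siCtrl and at 20.4, 20.1 and 20.1 FPKM in siNQO1. The rise was small and even across libraries, 0.17 on the log2 scale (95% interval 0.07 to 0.28, adjusted p = 0.0426 in edgeR). Col16a1 was of like size, at 15.9, 16.4 and 17.7 FPKM in siCtrl and 17.8, 18.6 and 19.5 FPKM in siNQO1, and did not pass (log2 fold change 0.17, adjusted p = 0.102 in edgeR). Col22a1, a collagen of tissue junctions, had 69, 67 and 85 reads in siCtrl and 46, 29 and 51 in siNQO1, or 0.34 to 0.43 and 0.16 to 0.25 FPKM. It fell by 0.90 on the log2 scale (95% interval -1.41 to -0.40, adjusted p = 0.0330 in edgeR), and its libraries did not overlap. Col8a1, a short-chain collagen that forms hexagonal networks under vessel and corneal endothelium, was at 14.2, 12.8 and 12.7 FPKM in siCtrl and at 15.5, 15.4 and 15.5 FPKM in siNQO1. It rose by 0.24 on the log2 scale (95% interval 0.11 to 0.37, adjusted p = 0.0295 in edgeR).

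**Figure D4:**
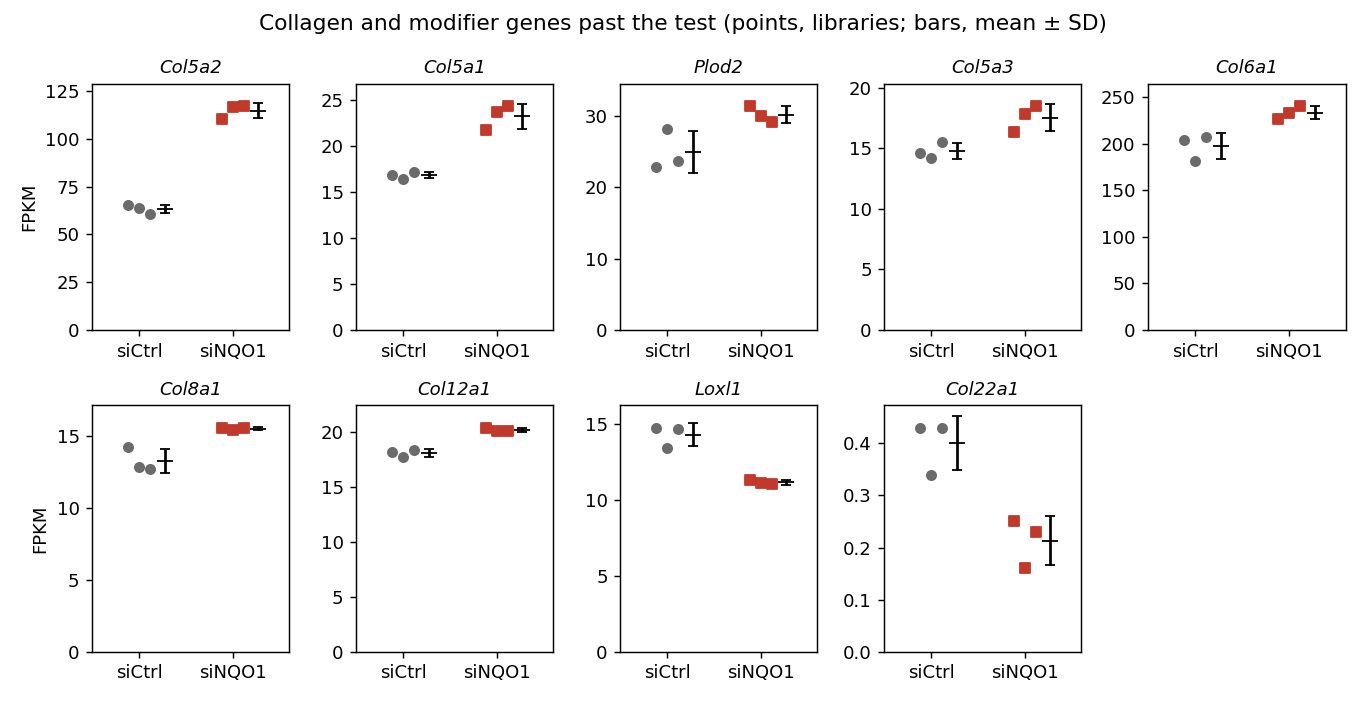
FPKM of the 9 genes past an adjusted p of 0.05, with each of the 3 siCtrl (circles) and 3 siNQO1 (squares) libraries as a point, bars for the mean ± SD and axes from 0. In each panel the groups do not overlap, with Col5a2 the widest apart relative to its spread and Col22a1 under 0.5 FPKM throughout.

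The other tested chains did not pass. Col18a1, a basement membrane collagen whose end fragment is endostatin, was at 1.41, 1.12 and 1.28 FPKM in siCtrl and 1.41, 1.17 and 1.32 FPKM in siNQO1. Col17a1, the transmembrane collagen of hemidesmosomes, was at 0.74 to 0.77 FPKM in siCtrl and 0.60 to 0.70 FPKM in siNQO1, with no overlap (log2 fold change -0.20, adjusted p = 0.322 in edgeR). Col7a1, which forms the anchoring fibrils of skin, and Col8a2 were at most 0.12 FPKM in any library. The 16 genes left out of the test had 1 to 62 reads over all 6 libraries, and 12 of them had 12 or fewer. The largest of these were Col9a3 (14, 8 and 23 reads in siCtrl, 6, 3 and 8 in siNQO1) and Loxl4 (4, 7 and 4 reads in siCtrl, 8, 6 and 17 in siNQO1). Without siCtrl replicate 2, Col9a3 passed the filter and was called lower, with a log2 fold change of -1.82 and an adjusted p of 0.0128 in edgeR. Col1a2, Col4a3, Col6a3, Col19a1, Col21a1, Col26a1 and Lox had no protein-coding row under these symbols. Their levels are therefore not known here. A row outside the rule, LOC100909752, annotated as like the alpha-1 chain of type XV, was at 17.2, 13.6 and 17.9 FPKM in siCtrl and 13.6, 11.9 and 12.5 FPKM in siNQO1 (log2 fold change -0.34, adjusted p = 0.0687 in edgeR), whereas Col15a1 itself had 3 reads in all. That row passed in DESeq2 (adjusted p = 0.00820), with no filter (0.0286), with the replicate number as a block (0.0376) and without siCtrl replicate 2 (0.000123).

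Lysyl hydroxylases add the hydroxyl groups that later crosslinks and sugars need. Plod2, which modifies the telopeptide lysines at the ends of the chain, was at 22.9, 28.2 and 23.7 FPKM in siCtrl and at 31.4, 30.0 and 29.1 FPKM in siNQO1. It rose by 0.29 on the log2 scale (95% interval 0.11 to 0.47, adjusted p = 0.0483 in edgeR), with siCtrl replicate 2 just below the siNQO1 libraries. Plod1, which acts on lysines within the helix, was at 33.4 to 40.0 FPKM in siCtrl and 37.7 to 39.4 FPKM in siNQO1 (95% interval of the log2 fold change -0.10 to 0.23). Plod3, which also adds sugars, was at 65.5 to 76.7 FPKM in siCtrl and 70.7 to 74.8 FPKM in siNQO1 (95% interval -0.14 to 0.16). Plod1 and Plod3 overlapped between the groups and did not pass.

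Lysyl oxidases start the crosslinks between chains and between fibrils, and Loxl1 is known for its role in elastic fibres. Loxl1 (ENSRNOG00000008680) was at 14.8, 13.4 and 14.7 FPKM in siCtrl and at 11.3, 11.1 and 11.0 FPKM in siNQO1. It fell by 0.34 on the log2 scale (95% interval -0.49 to -0.20, adjusted p = 0.0120 in edgeR), and no libraries overlapped. Loxl2, which crosslinks type IV collagen, was at 9.98, 9.29 and 10.0 FPKM in siCtrl and at 7.34, 7.99 and 8.65 FPKM in siNQO1. Its libraries did not overlap, and the log2 fold change of -0.28 did not pass (adjusted p = 0.0689 in edgeR, 0.0105 without siCtrl replicate 2 and 0.0457 with a filter of 1 CPM). Loxl3, the most abundant of the family, overlapped between the groups at 232, 198 and 224 FPKM in siCtrl and 202, 216 and 224 FPKM in siNQO1 (log2 fold change -0.01, 95% interval -0.17 to 0.15).

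Of the 4 chaperone, processing and binding genes none passed. Sparc, a secreted protein that binds collagen and was the most abundant of the 51 genes, was at 334, 302 and 347 FPKM in siCtrl and at 284, 288 and 294 FPKM in siNQO1. All siNQO1 libraries were below all siCtrl libraries, and the log2 fold change of -0.17 (95% interval -0.31 to -0.03) gave an adjusted p of 0.117 in edgeR, or -0.23 and 0.000417 without siCtrl replicate 2. Pcolce, which enhances the removal of the C-propeptide, was at 299, 255 and 296 FPKM in siCtrl and at 292, 291 and 298 FPKM in siNQO1 (95% interval -0.09 to 0.22). P3h1, which hydroxylates a proline at its other carbon, was at 43.3, 35.1 and 39.3 FPKM in siCtrl and at 40.5, 42.5 and 42.0 FPKM in siNQO1 (95% interval -0.07 to 0.27). Serpinh1, the collagen chaperone HSP47, was low for such a gene, at 0.59, 1.11 and 0.66 FPKM in siCtrl and at 0.77, 0.53 and 0.71 FPKM in siNQO1 (95% interval -0.84 to 0.40). These 3 genes overlapped between the groups.

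Col4a3bp, the ceramide transfer protein, was at 5.03, 9.18 and 6.20 FPKM in siCtrl and at 9.23, 8.63 and 8.38 FPKM in siNQO1. The groups overlapped through siCtrl replicate 2 alone. The log2 fold change was 0.37 (adjusted p = 0.217 in edgeR), and 0.64 without that library (adjusted p = 0.000166).

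Leaving out a library moved most of these calls. Without siCtrl replicate 2, 11 of the 51 genes were higher (adding Col1a1, Col27a1, Col4a3bp and Col6a2) and 5 lower (adding Col9a3, Loxl2 and Sparc). In that fit the share of all 12615 genes tested was 17.2% higher and 16.1% lower, so calls increased across all genes and not in this group alone. In the other 5 fits it was 1.32% to 2.73% higher and 2.78% to 5.23% lower. Without siNQO1 replicate 2 the called genes were Col5a1 and Col5a2, and without siNQO1 replicate 3 these and Loxl1. Without siNQO1 replicate 1 they were Col5a1, Col5a2, Col5a3 and Loxl1. Leaving out siCtrl replicate 1 left Col5a1, Col5a2, Col8a1 and Loxl1, and leaving out siCtrl replicate 3 left Col5a1, Col5a2, Col5a3 and Col6a1. The highest adjusted p over these 6 edgeR fits was 0.00251 for Col5a2, 0.0154 for Col5a1, 0.0532 for Loxl1, 0.102 for Col6a1, 0.111 for Col5a3, Col8a1 and Col22a1, 0.139 for Col12a1 and 0.203 for Plod2. The log2 fold changes of the 9 genes kept their sign in all 6 fits. Of these 6 fits, Plod2, Col12a1 and Col22a1 passed only in the 1 without siCtrl replicate 2. Their log2 fold changes there were 0.38, 0.15 and -1.01 (adjusted p = 0.000149, 0.0110 and 0.00858 in edgeR).

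Other genes of collagen biosynthesis were read from a list of prolyl hydroxylases, chaperones, secretion factors and processing enzymes. Of its 29 genes with a row 25 were tested, 4 rose, 3 fell and 18 did not pass, with a median log2 fold change of 0.05. Across all genes tested, 5.27% were called higher and 7.38% lower. An unadjusted p under 0.05 in edgeR was reached by 12 of the 25, beside 29% of all genes tested. Fkbp10, a prolyl isomerase of the endoplasmic reticulum that assists collagen folding and crosslinking, had the largest fall among those that passed, from 104.4 ± 7.13 FPKM in siCtrl to 69.2 ± 1.40 FPKM in siNQO1 (SD, n = 3 each, log2 fold change -0.58, adjusted p = 0.00115 in edgeR). The prolyl 4-hydroxylase subunits P4ha3 (log2 fold change 0.29, adjusted p = 0.0114 in edgeR) and P4ha2 (0.24, adjusted p = 0.0217) rose. So did the peroxidase Pxdn, which crosslinks type IV collagen (0.40, adjusted p = 0.00862 in edgeR), and Pcolce2, the relative of Pcolce (0.24, adjusted p = 0.0284). Sec23a, a coat protein of the vesicles that carry procollagen (-0.38, adjusted p = 0.0456 in edgeR), and Creb3l2, the factor that drives secretory genes (-0.28, adjusted p = 0.0453), fell. The shared subunit P4hb was at 536 to 618 FPKM, and Crtap, the partner of P3h1, at 0.17 to 0.44 FPKM.

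Of the 10 collagen receptor genes with a row 7 were tested, 1 rose and none fell in edgeR. The shares over all genes tested were 5.27% higher and 7.38% lower. An unadjusted p under 0.05 in edgeR was reached by 3 of the 7, beside 29% of all genes tested. Itga1, an integrin subunit that binds collagen, rose from 4.67 ± 0.382 to 6.53 ± 0.733 FPKM (SD, n = 3 each, log2 fold change 0.50, adjusted p = 0.0158 in edgeR). Among the 26 genes of the matrix that associates with fibrils, 17 were tested, 1 rose and 1 fell. These counts are close to the shares over all genes tested, 5.27% higher and 7.38% lower. Ltbp1, which stores latent TGF-beta in the matrix, rose by 0.19 on the log2 scale (adjusted p = 0.0486 in edgeR), and Prelp, a proteoglycan that binds collagen, fell by 0.25 (adjusted p = 0.0496). Of the genes that rose or fell in these lists, Fkbp10 alone passed in all 6 fits with a library left out.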

How the data were processed

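Polyadenylated RNA of 3 siNQO1 and 3 siCtrl samples was sequenced from a stranded kit. The authors trimmed the reads, aligned them to the RGSC6 genome with TopHat2 and kept unique alignments. Unique reads were then counted per gene by the authors and deposited without normalization as whole counts. Their deposited FPKM values scale these fragments to transcript length and to mapped reads. The submitters' processing notes also name bcl2fastq and edgeR. For the counting tool and its strand setting, nothing was stated, and overlapping genes may share reads.

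Counts were fitted in R 4.3.3 with edgeR 4.0.16 (filterByExpr, TMM, glmQLFit and glmQLFTest, no block), with Benjamini-Hochberg adjustment over 12420 genes tested. TMM factors ran from 0.987 to 1.02 and reads in genes from 28873824 to 39467230. The common biological coefficient of variation was 0.109. Log2 CPM used a prior count of 2. FPKM served for levels. Alternatives were other scalings and filters, DESeq2 1.42.0, limma 3.58.1 (voom, and log2 FPKM with pseudocounts of 1 and 0.1), a block for the replicate number, and fits without each library.

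The genes and lists were chosen with earlier results of these data known. Genes named were those past the test, the 10 with the highest mean FPKM, those with a log2 fold change beyond 1 in size, all modifying and binding genes, and up to 5 of each other list per direction. Others are named where a class of few genes is described, a choice made with their values in view. Between libraries with the same number, deviations from the group mean correlated at -0.04, 0.16 and 0.06, so the libraries were treated as unpaired. A result of the marker lists is not reported here.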

Additional observations from a re-analysis of the deposited data

How the results depend on the processing

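Of the 9 genes called, Col5a2, Col5a1, Col6a1 and Loxl1 passed under every alternative run other than leaving out a library. In both limma fits of log2 FPKM (pseudocounts of 1 and 0.1), 3 of the collagen and modifier genes were called higher and 1 lower. Over all genes tested, these fits called 4.85% higher, and 7.42% and 7.41% lower. Col5a3, Col8a1, Col12a1, Plod2 and Col22a1 were lost in both. With the replicate number as a block, 5 were higher and 2 lower, Plod2 (adjusted p = 0.0515) and Col12a1 (0.0758) being lost, while over all genes tested the block gave 610 higher and 740 lower in place of 654 and 917. Plod2 was also lost under RLE scaling (0.0523), library size alone (0.0612) and a filter of 1 CPM (0.0648), and Col12a1 without a filter (0.0558). Calls were gained for Col6a2 with library size alone, no filter and DESeq2, for Col1a1 with no filter and for Loxl2 with the 1 CPM filter. Of the assembly partners, 1 was lower under upper quartile scaling, both FPKM fits and the block. Over all genes tested, 6.61% were lower under upper quartile scaling and 5.96% with the block. Of the fibril-associated matrix genes, 0 were higher under both FPKM fits. The higher count was 2 under library size alone, upper quartile scaling, no filter, the 1 CPM filter, DESeq2, voom and the block. Across these settings, the higher share over all genes tested ran from 4.14% (no filter) to 6.19% (DESeq2). Under upper quartile scaling, voom and the block, 0 of these matrix genes were lower, and voom called 7.47% of all genes tested lower. In edgeR, 6 of the 17 matrix genes were at an unadjusted p under 0.05, beside 29% of all genes tested. Leaving out 1 library gave 167 to 2164 genes higher and 351 to 2036 lower over all genes tested, 2 to 11 and 0 to 5 among the collagen and modifier genes, 0 to 5 and 1 to 7 among the partners, 0 to 2 and 0 to 2 among the receptors, and 0 to 4 and 0 to 3 among the matrix genes. Without siCtrl replicate 2 the highest counts over all genes were reached. Among the genes given with a fold change or its interval, direction changed only in ones that did not pass. Over the fits without 1 library the log2 fold change ran from -0.011 to 0.11 for Pcolce, from -0.084 to 0.015 for Loxl3, from -0.060 to 0.043 for Plod3, from -0.015 to 0.13 for Plod1, from -0.0079 to 0.10 for Col4a1 and from -0.40 to 0.10 for Serpinh1. Pcolce, Plod3, Plod1, Col4a1 and Serpinh1 crossed 0 without siCtrl replicate 2. Loxl3 crossed 0 when siCtrl replicate 1 or 3 or siNQO1 replicate 1 was omitted (0.0042 in the last), and Plod3 when siNQO1 replicate 3 was omitted (-0.02) and with the 1 CPM filter (-0.00073). The cause of these shifts was not tested. With 3 libraries a group, genes with few reads, such as Col22a1 and the 16 not tested, are the least precise.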
